A study of Bos taurus with 7 samples.

Results

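miR-423-5p, miR-361 and miR-197 are 3 circulating miRNAs that have been proposed as reference measurements in plasma, and miR-197 is also counted among the miRNAs of platelets. They are 3 of the 744 bovine miRNAs on the array (bta-miR-423-5p, bta-miR-361 and bta-miR-197 in its design) and were chosen by name, control spots left out. The measurements come from plasma of 7 Japanese-Black cows (Bos taurus), sampled on day 21 after artificial insemination at a controlled oestrus. There were 4 cows labelled pregnant (1 to 4) and 3 labelled non-pregnant (1, 3 and 4), so both groups had been inseminated, and each cow was hybridised to its own 1-colour array with 50 ng of RNA. With so few arrays every comparison is imprecise. The p-values weigh a group difference against the spread between arrays, in which cow and hybridisation are mixed. All arrays were on 1 slide, with the pregnant cows in one row and the non-pregnant cows in the other, and an effect of the row on the slide cannot be told apart from one of pregnancy.

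A miRNA is a short RNA that guides the Argonaute protein to matching sites in messenger RNAs and lowers their output. In plasma, miRNAs circulate in vesicles and protein complexes and come in large part from blood cells and platelets. Because plasma has no housekeeping RNA of constant amount, a reference miRNA is used as the divisor for the others. It has to be measured on every sample, vary little between samples and not differ between the groups compared.

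Each of the 3 miRNAs is read by 2 nested DNA probes with 10 spots each. The sequences are shown because the signal differed between the 2 probes of each miRNA. They are written 5′ to 3′ as given by the array design, and the capital letter marks the 1 base that the longer probe has beyond the shorter one.
miR-423-5p longer probe: aaagtctcgctctctgC
miR-423-5p shorter probe: aaagtctcgctctctg
miR-361 longer probe: gtacccctggagattC
miR-361 shorter probe: gtacccctggagatt
miR-197 longer probe: gctgggtggagaaggtG
miR-197 shorter probe: gctgggtggagaaggt
On the bovine build bosTau6, the array design places the longer probes at chr19:21799507-21799522 (miR-423-5p), chrX:74328434-74328448 (miR-361) and chr3:33965019-33965034 (miR-197), the last with its coordinates in descending order. These intervals span 16, 15 and 16 bases, while the probes have 17, 16 and 17. In RefSeq's gene table for ARS-UCD2.0, the miR-423 gene overlaps NSRP1, a splicing regulator, the miR-361 gene overlaps CHM, the Rab escort protein gene, and the miR-197 gene overlaps AMPD2, an AMP deaminase. The longer probes have a GC content of 52.9%, 56.3% and 64.7%, against a median of 50.0% over the 1617 probes of the array. No other miRNA's probe shares a run of more than 8 bases with a probe of miR-423-5p or miR-361, or of more than 7 bases with a probe of miR-197.

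The arrays differed widely in brightness. Of 744 miRNAs, 40 were called detected on all 7 arrays and 124 on at least 1, with 90 to 101 per pregnant array and 45, 84 and 81 on non-pregnant 1, 3 and 4. The 75th percentile over the 57 probes detected on every array, used as the divisor for scaled levels, was 606, 442, 1645 and 415 in pregnant 1 to 4 and 172, 1052 and 819 in non-pregnant 1, 3 and 4. Non-pregnant 1 was the dimmest array in both respects.

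miR-423-5p was detected on every array and was the only one of the 3 whose unscaled signal showed no overlap between the groups, with all pregnant cows above all non-pregnant ones. In the authors' deposited table, which is the log2 of this signal plus a constant, it was 1 of 5 such miRNAs among the 87 tested (5.75%). Only the 40 miRNAs detected on all 7 arrays could be counted in this way, because that table is blank where a miRNA was undetected. Its hairpin also yields miR-423-3p, which was not detected on any array. The software's signal per miRNA (the sum of the probes it accepts, in fluorescence units) was 26.5, 24.8, 33.7 and 28.6 in pregnant 1 to 4 and 8.18, 22.4 and 23.4 in non-pregnant 1, 3 and 4. Non-pregnant 1 stood far below the other 6 arrays, and the remaining non-pregnant arrays lay just under the lowest pregnant one. The means were 28.4 ± 3.85 (SD, n = 4) and 18.0 ± 8.52 (SD, n = 3), and the second was 22.9 ± 0.688 (SD, n = 2) without non-pregnant 1.

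The longer probe of miR-423-5p gave 27.7, 26.4, 37.0 and 33.2 in pregnant 1 to 4 and 12.3, 23.7 and 26.0 in non-pregnant 1, 3 and 4. Again the groups did not overlap, the closest values being 26.4 in pregnant 2 and 26.0 in non-pregnant 4. The standard errors over the spots of these arrays were 0.7502 and 0.873, larger than the gap between them. On the brightest probe of each miRNA, with a floor, 8 of the 88 tested miRNAs (9.09%) were separated in this way, miR-423-5p among them. All unflagged spots of the longer probe were well above background on all 7 arrays. The shorter probe was lower on every array, at 9.95 to 13.7 in pregnant cows and 2.22, 10.1 and 9.29 in non-pregnant 1, 3 and 4. None of its spots was well above background in non-pregnant 1.

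miR-361 was not measurable in 1 cow. The software called it detected in all 4 pregnant cows and in 2 of the 3 that were not. The signal was 4.49, 8.66, 11.1 and 8.99 in pregnant 1 to 4 and 5.75 and 3.71 in non-pregnant 3 and 4. Non-pregnant 1 was listed at 0.1, the value the software gives to an undetected miRNA. Pregnant 1 lay below non-pregnant 3, so the groups overlapped. By the stricter measure of over 50% of spots well above background, it was measured in 3 of the pregnant cows and in 1 non-pregnant cow.

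The longer probe of miR-361 read 6.77, 13.0, 16.8 and 13.6 in pregnant 1 to 4 and -0.686, 8.67 and 5.59 in non-pregnant 1, 3 and 4. The value of non-pregnant 1 lay at the background, with a spot SD of 1.81 over 10 spots. The shorter probe had 0 spots well above background on all 7 arrays and ran from -3.65 to 2.63. The signal of miR-361 therefore came from the longer probe alone in all 6 cows in which it was detected.

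miR-197 was detected on every array, near the lower limit of measurement on all but 1. The software's signal was 7.97, 8.49, 27.9 and 7.12 in pregnant 1 to 4 and 6.84, 7.30 and 5.69 in non-pregnant 1, 3 and 4. Pregnant 3, the brightest array, stood alone, and the other 6 arrays lay between 5.69 and 8.49 with the 2 groups overlapping. The group means were 12.9 ± 10.01 (SD, n = 4) and 6.61 ± 0.828 (SD, n = 3).

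The number of probes behind the software's signal of miR-197 differed between arrays. The longer probe of miR-197 read 12.01, 12.8, 28.4 and 10.7 in pregnant 1 to 4 and 10.3, 10.996 and 8.58 in non-pregnant 1, 3 and 4. The shorter probe read 13.5 in pregnant 3, with 9 of 9 spots well above background, and between 0.236 and 5.38 elsewhere. The software added both probes for miR-197 in pregnant 3 and counted the longer probe alone on the other 6 arrays. For miR-423-5p it was the reverse: both probes were added on 6 arrays and the longer probe alone in non-pregnant 1. The highest signal was 4.89 times the lowest for miR-197 and 4.12 times for miR-423-5p by the software, and 3.32 and 3.00 times by the longer probe. Each ratio rested on 1 array. Without pregnant 3 it was 1.49 for miR-197 by either measure, and without non-pregnant 1 it was 1.502 for miR-423-5p by the software and 1.56 by the longer probe.

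**Figure D1:**
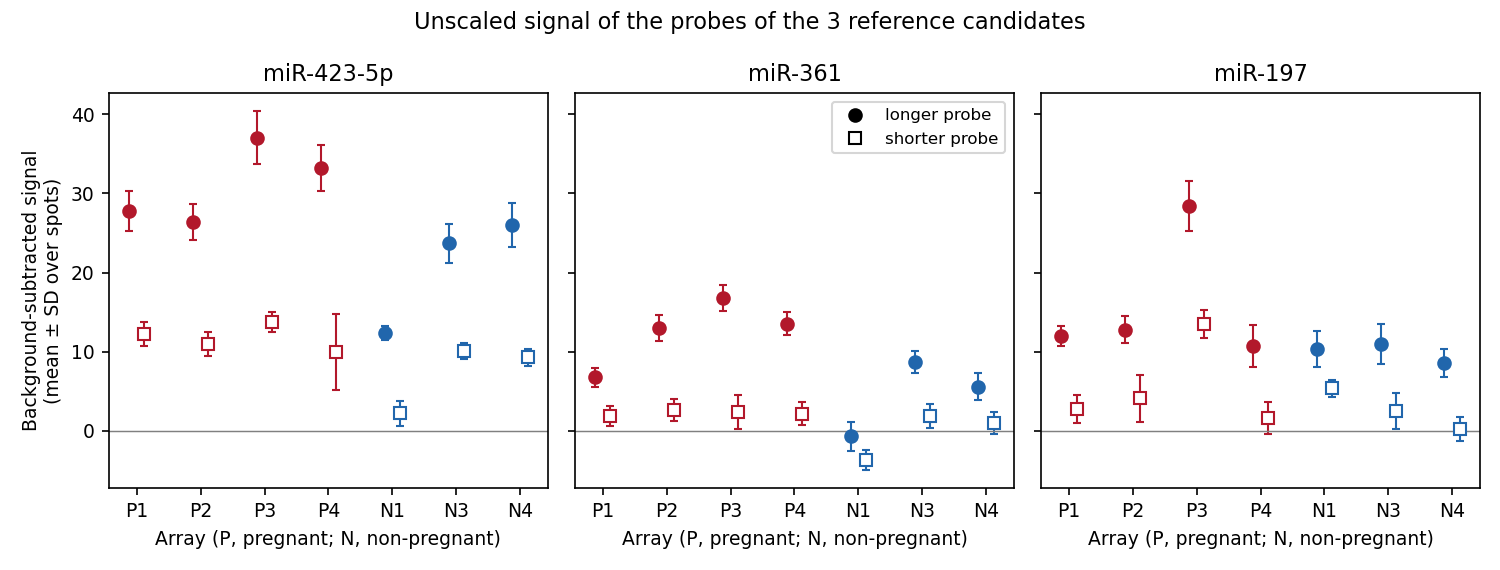
Background-subtracted signal in fluorescence units (y axis, linear) of the longer probe (filled circles) and the shorter probe (open squares) of each miRNA on each array (x axis; red P, pregnant cow; blue N, non-pregnant cow). Points are means and bars SDs over the unflagged spots of 1 array; the longer probe lies above the shorter one on all 7 arrays for all 3 miRNAs, and miR-197 stands out in pregnant 3 at 28.4.

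The scatter of the spots within an array was measured apart from the spread between arrays. For the longer probe, the SD between the 7 arrays was 7.81 for miR-423-5p, 5.89 for miR-361 and 6.76 for miR-197, while the standard error over an array's spots was at most 1.06, 0.573 and 0.996. Each cow had 1 array, so variation between cows and between hybridisations cannot be told apart.

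None of the 3 miRNAs differed between pregnant and non-pregnant cows past the threshold of an adjusted p of 0.05. On scaled levels, limma's fit over the 88 miRNAs detected on at least 3 arrays called 0 of the 3 members and 0 of 88 miRNAs (0.00%), with 1 of the 88 at an unadjusted p under 0.05. A scaled level is the mean over a miRNA's probes of log2 of the signal over the 75th percentile, with a floor at log2 -6.36.

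The scaled level of miR-423-5p was -5.04, -4.70, -5.92 and -4.51 in pregnant 1 to 4 and -5.04, -5.92 and -5.67 in non-pregnant 1, 3 and 4. The groups overlapped, with pregnant 3 as low as non-pregnant 3. The means were -5.04 ± 0.62 (SD, n = 4) and -5.54 ± 0.45 (SD, n = 3). The log2 difference was 0.50, its standard error 0.39, and its 95% interval ran from -0.44 to 1.44 (limma adjusted p = 0.743). This interval includes both no difference and a change of more than 1 log2 unit, so it does not show that miR-423-5p is equal in the groups. With an array left out the difference ran from 0.18, without non-pregnant 3, to 0.68, without non-pregnant 1. It was 0.302 without non-pregnant 4.

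Without scaling, the miR-423-5p level was 4.20, 4.09, 4.49 and 4.18 in pregnant 1 to 4 and 3.36, 3.95 and 3.96 in non-pregnant 1, 3 and 4. Every pregnant array lay above every non-pregnant array. miR-423-5p was 1 of 8 such miRNAs among the 88 tested (9.09%) on this scale. On the scaled levels there was 1 of 88 (1.14%), another miRNA. The log2 difference was 0.49, its standard error 0.19 and its interval 0.025 to 0.95 (limma adjusted p = 0.369). Without non-pregnant 1 it was 0.29, with an interval from -0.046 to 0.62 (limma adjusted p = 0.760), and the groups still did not overlap, as 1 of 8 of the 88 (9.09%). In the authors' deposited table it was 0.80. With quantile scaling the difference was 0.069, with an interval from -0.27 to 0.41, and with the floor doubled it was 0.17. The size of the group difference of miR-423-5p thus depended on the scaling between arrays and on the floor. With normexp background correction it turned to -0.11.

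For miR-361 the comparison was limited by the floor. The floor, fixed on the scaled values, corresponds to a signal of 20.004 in pregnant 3 and 2.09 in non-pregnant 1. Both probes of miR-361 were at or below it in non-pregnant 1, 3 and 4 and in pregnant 1 and 3, although 10 of 10 spots of the longer probe were well above background in pregnant 3. Its scaled level was above the floor only in pregnant 2 (-5.72) and pregnant 4 (-5.65). The log2 difference was 0.34, its standard error 0.22 and its interval -0.19 to 0.87 (limma adjusted p = 0.743). It could not be negative in this setting, and no fold is given for it. Without scaling it was 0.28, with an interval from -0.015 to 0.57 (limma adjusted p = 0.392).

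With the floor halved, the miR-361 difference was 0.69 and every pregnant array lay above every non-pregnant one, making it 1 of 2 such miRNAs among the 88 (2.27%). With the floor doubled it was 0.088. On the longer probe without floor or scaling, the mean log2 signal was 3.57 ± 0.57 (SD, n = 4) in pregnant cows and 2.80 ± 0.45 (SD, n = 2) in the 2 non-pregnant cows with a signal above 0, and the groups overlapped.

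For miR-197 the sign of the difference rested on 1 array. Its scaled level was -6.01, -5.74, -6.11 and -5.82 in pregnant 1 to 4, -4.53 in non-pregnant 1, and at the floor of -6.36 in non-pregnant 3 and 4. The highest and the lowest levels were thus both in non-pregnant cows. Non-pregnant 1 had an ordinary longer-probe signal for miR-197 (10.3) on the array with the smallest divisor (172).

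The miR-197 means were -5.92 ± 0.17 (SD, n = 4) and -5.75 ± 1.06 (SD, n = 3). The log2 difference was -0.17, its standard error 0.47 and its interval -1.31 to 0.97 (limma adjusted p = 0.971). Without non-pregnant 1 it was 0.49, its standard error 0.12 and its interval 0.19 to 0.78 (limma adjusted p = 0.472), and each pregnant array was above both remaining non-pregnant arrays, which were at the floor. It was 1 of 13 such miRNAs among the 88 (14.8%) in that setting. Without non-pregnant 3 or non-pregnant 4 the difference was -0.47 in both cases. Without scaling it was 0.37, with a standard error of 0.27 and an interval from -0.31 to 1.05 (limma adjusted p = 0.779).

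**Figure D2:**
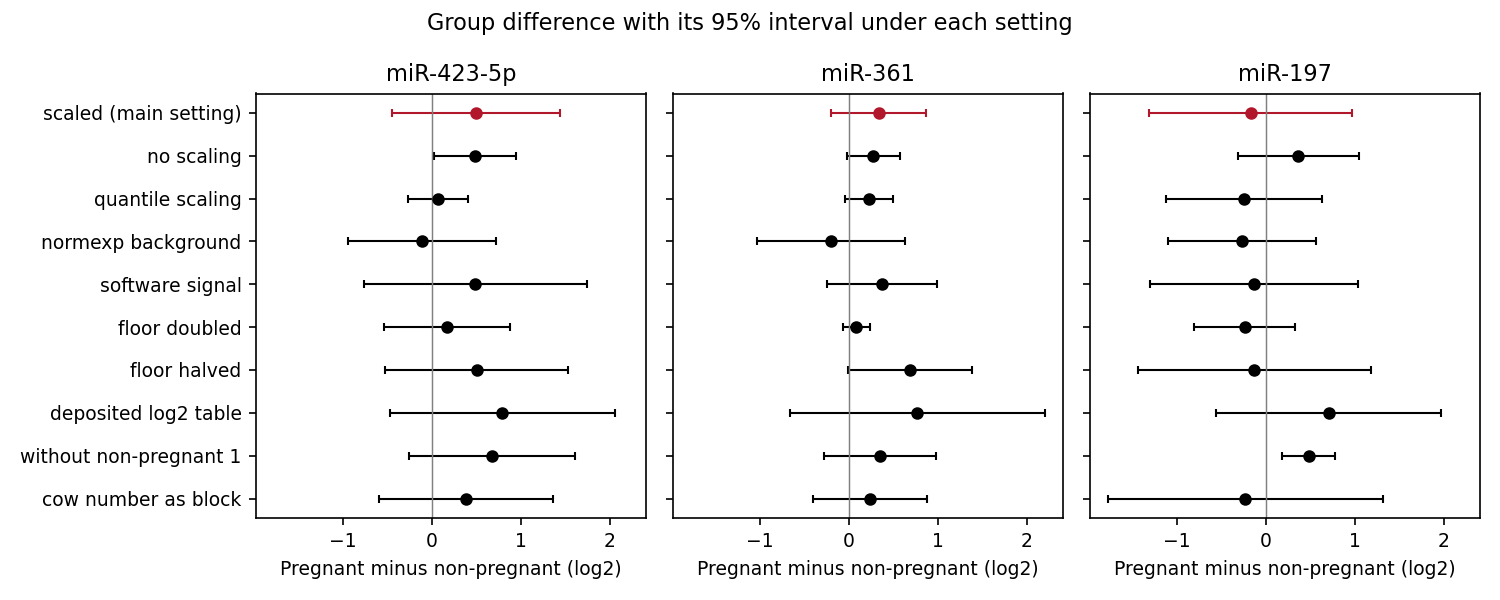
Pregnant minus non-pregnant level in log2 units (x axis) of each miRNA under 10 settings (y axis), with the 95% interval of limma's fit over all tested miRNAs; the scaled levels are in red. The difference of miR-423-5p runs from -0.11 with normexp background correction to 0.80 in the deposited table, and that of miR-197 is on either side of 0 depending on the setting.

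How steady the candidates were depended on the scaling between arrays. The longer probe was compared with the brightest probe of each of the 40 miRNAs detected on every array, with no floor. Without scaling, the log2 SD over the 7 arrays was 0.51 for miR-423-5p, the 4th smallest of 40, and 0.56 for miR-197, the 7th smallest. The median of the 40 was 0.88, and the smallest was 0.32, of miR-1246, whose sequence also occurs in the small nuclear RNA U2. miR-1246 ranked 35 of 40 after scaling.

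After division by the 75th percentile the order turned for the candidates too. miR-423-5p then had an SD of 0.76, rank 30 of 40, and miR-197 an SD of 0.88, rank 32 of 40, against a median of 0.52. On the scaled levels defined above the ranks were the same, with SDs of 0.58 and 0.63 and a median of 0.37. The 5 steadiest miRNAs on those levels were miR-1777b (SD 0.12), miR-2888 (0.19), miR-2902 (0.22), miR-6528 (0.24) and miR-2348 (0.26). Without scaling the same 5 had SDs of 0.93 to 1.19. The divisor is taken over probes detected on every array, probes of these 40 miRNAs included, so SDs and ranks after scaling are not independent of it. Other settings gave other ranks. With quantile scaling miR-423-5p had an SD of 0.17, rank 4 of 40 against a median of 0.33, and miR-197 one of 0.50, rank 34. With the floor doubled on the scaled levels miR-423-5p ranked 22 of 40 and miR-197 ranked 15. With the median of the miRNAs detected on all arrays as divisor the ranks were 28 and 31. Both candidates were thus among the steadier of the 40 miRNAs in raw signal and among the more variable after division by the 75th percentile with the floor as set, and miR-423-5p was again among the steadier with quantile scaling.

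**Figure D3:**
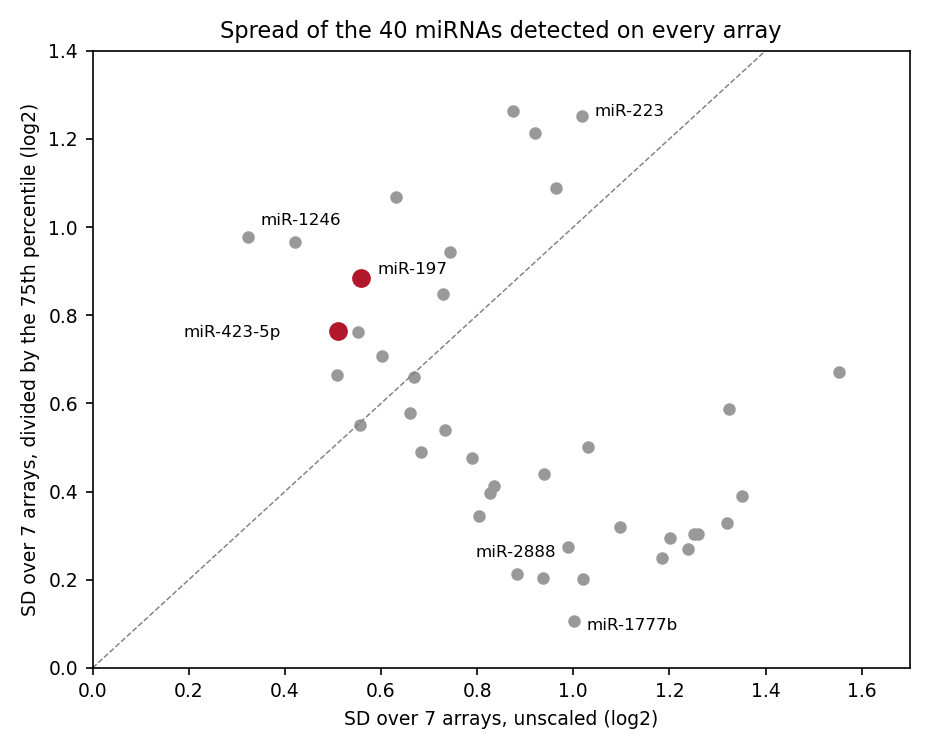
SD over the 7 arrays of the log2 signal of the brightest probe, without scaling (x axis) and after division by each array's 75th percentile (y axis), for the 40 miRNAs detected on every array. Red points are miR-423-5p and miR-197, grey points the other miRNAs, and the dashed line marks equal SDs; both candidates lie above the line, at 0.51 and 0.76 and at 0.56 and 0.88.

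The 3 miRNAs followed array brightness only in part. The log2 75th percentile ran from 7.43 to 10.68, a range of 3.26, while the log2 longer-probe signal had a range of 1.59 for miR-423-5p, 1.73 for miR-197 and 1.58 for miR-361 over the 6 arrays with a signal above 0. Without non-pregnant 1 the range of miR-423-5p was 0.64, and without pregnant 3 that of miR-197 was 0.58. In non-pregnant 3 and 4 the percentile was above its mean over arrays and the signals of miR-197 and miR-361 were below theirs. In pregnant 4 the percentile was below its mean and miR-423-5p and miR-361 were above theirs. What sets the percentile apart from these miRNAs was not tested.

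**Figure D4:**
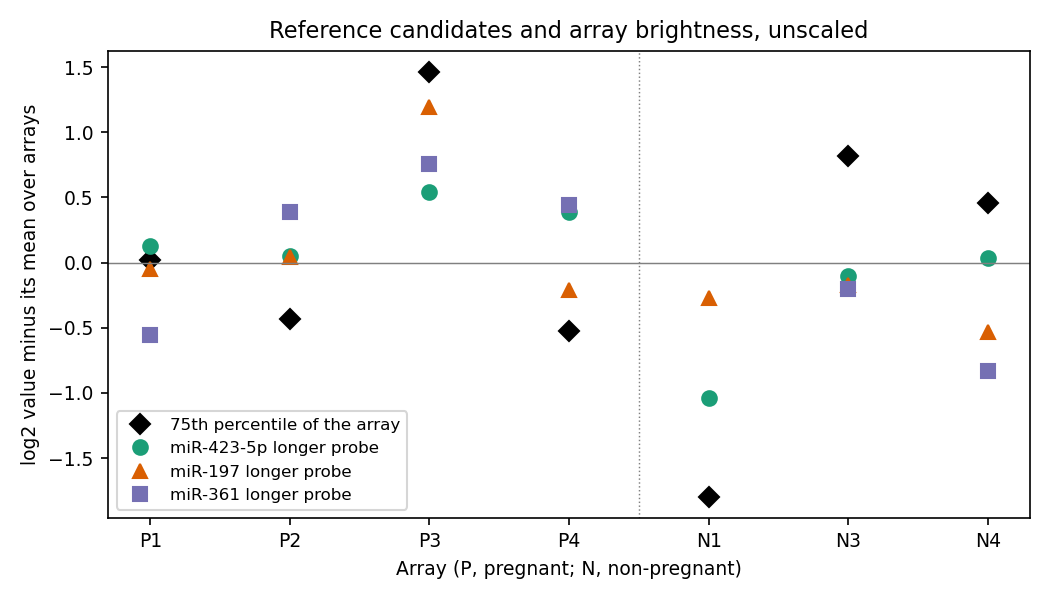
Log2 value minus its own mean over arrays (y axis) for the longer probe of each candidate and for the 75th percentile of the array (black diamonds), on each array (x axis; P, pregnant; N, non-pregnant). The percentile spreads over 3.26 log2 units and the candidates over 1.58 to 1.73; miR-361 has no point in non-pregnant 1, where its signal was below 0.

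Single arrays decided part of the spread. Without non-pregnant 1, the unscaled SD of miR-423-5p was 0.24 in place of 0.51 and its rank was 2 of 40, and that of miR-197 was 0.60, rank 17 of 40. Without pregnant 3, the SD of miR-197 was 0.20, the smallest of the 40, and that of miR-423-5p was 0.49. On the 6 arrays other than non-pregnant 1, miR-361 had an SD of 0.63.

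The candidates did not keep a constant ratio to each other. The log2 ratio of miR-197 to miR-423-5p on the longer probes was -1.21, -1.04, -0.38 and -1.63 in pregnant 1 to 4 and -0.26, -1.11 and -1.60 in non-pregnant 1, 3 and 4. Its SD was 0.54, about that of each miRNA alone. The highest ratios were on the brightest array, pregnant 3, and the dimmest, non-pregnant 1. The ratio of miR-361 to miR-423-5p had an SD of 0.49 and that of miR-361 to miR-197 one of 0.46, both over 6 arrays. Averaged over its log2 ratios to each of the other miRNAs detected on every array, the SD was 0.67 for miR-423-5p (rank 20 of 40, median 0.67) and 0.83 for miR-197 (rank 32 of 40). The smallest such value was 0.53, of miR-2348.

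On scaled levels, the miRNAs with the most constant ratio to miR-423-5p over the 7 arrays were miR-1246 (SD of the log2 ratio 0.16), miR-29a (0.23), of a family that represses collagen genes, and miR-451 (0.24), a miRNA of red cells. On the brightest probes alone and with no floor these were 0.29, 0.34 and 0.76, and miR-451 ranked 27. Which of these 2 changes moved miR-451 was not tested. For miR-197 they were miR-4286 (0.33), miR-3141 (0.36) and miR-2316 (0.42), and 0.34, 0.56 and 0.63 with no floor. All these ratios share arrays and divisors and are given as a description.

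Using the candidates as the divisor in place of the 75th percentile called no miRNA. With the longer probe of miR-423-5p as divisor, limma found 0 of 88 miRNAs, with 2 at an unadjusted p under 0.05. With miR-197 it found 0 (0 unadjusted) and with the mean of both 0 (2 unadjusted). The median SD of the 40 miRNAs detected on every array was 0.64, 0.76 and 0.66 with these divisors, against 0.37 with the 75th percentile and 0.83 without scaling. The percentile is itself taken over probes detected on every array, probes of these 40 miRNAs included. A smaller SD under it is therefore partly built in, and these medians do not rank the divisors.

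The number of miRNAs higher in pregnant cows moved with the processing. A change of divisor adds 1 constant to the difference of every miRNA above the floor on all arrays. Many tested miRNAs touch the floor, which is set anew for each divisor, so the counts do not follow from that constant alone. From the 75th percentile to no scaling, miR-223, with no probe at the floor, went from 1.13 to 1.44. miR-423-5p, with a probe at the floor on 3 arrays, went from 0.50 to 0.49. Of the 88 tested, 62 were higher in pregnant cows with the 75th percentile, 32 with miR-423-5p as divisor, 33 with miR-197 and 31 with both. The count was 76 without scaling, and 40 without scaling when non-pregnant 1 was left out. It was 39 with quantile scaling, 38 with the median of the miRNAs detected on all arrays, 8 with normexp background correction and 46 with the floor doubled. The median difference of all tested miRNAs was 0.18 with the 75th percentile, -0.070 with miR-423-5p, -0.10 with miR-197 and -0.063 with both.

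Of the miRNAs proposed as plasma references, as of all miRNAs on the array, few were detected on every array. Of 25 such miRNAs, the 3 candidates included, 14 (56.0%) were seen on 1 or more arrays, beside 124 of all 744 (16.7%). On all 7 arrays 3 of the 25 were seen, beside 40 of all 744, and 7 were tested. Among those detected on none were miR-103, miR-191, miR-221, miR-222 and miR-26a. None of the 7 passed the threshold. The list's summed unscaled signal was 118 to 192 in pregnant and 53.0 to 108 in non-pregnant cows. In the scaled levels 6 of 7 were higher in pregnant cows with a median difference of 0.34, beside 62 of 88 and 0.18 over all tested miRNAs, and without scaling 7 of 7 with a median of 0.36, beside 76 of 88 and 0.20. The members besides the 3 candidates were miR-24-3p (0.67, standard error 0.75), miR-16b (0.38, standard error 0.25), miR-320a (0.33, standard error 0.18) and let-7i (0.30, standard error 0.22). With an array left out, miR-24-3p ran from 0.18, without non-pregnant 3, to 1.18, without pregnant 3. It was 1.103 without non-pregnant 1. The ranges were 0.25 to 0.50 for miR-16b, 0.20 to 0.38 for miR-320a and 0.15 to 0.31 for let-7i. miR-24-3p was the only other member detected on all 7 arrays, and with a scaled SD of 1.06 it ranked 38 of 40. let-7i, of a family that represses growth genes, lay at the floor in non-pregnant 1, 3 and 4, so its difference could not be negative, and miR-320a was there in 2 of 3.

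The summed unscaled signals of blood-cell markers overlapped between the groups and reached higher in pregnant cows. Of 17 platelet miRNAs on the array, miR-197 among them, 7 (41.2%) were seen on 1 or more arrays, beside 124 of all 744 (16.7%). From the platelet list 4 were tested (miR-223, miR-24-3p, miR-320a and miR-197), with 0 past the threshold. The platelet-rich miR-21-5p and miR-191 were not detected on any array. The summed signal of the platelet list was 202 to 468 in pregnant and 86.5 to 228 in non-pregnant cows. Its member miR-223, which myeloid cells also hold, differed by 1.13 (standard error 0.80) on scaled levels, and by 0.69 without non-pregnant 3 to 1.60 without pregnant 3. miR-223 is on the leukocyte list as well, so the sums of both lists share it. Its unscaled signal was 123, 369, 240 and 357 in pregnant 1 to 4 and 55.9, 96.5 and 152 in non-pregnant 1, 3 and 4. Of 12 red-cell miRNAs 10 (83.3%) were detected and 8 tested, with 0 past the threshold. Their summed signal was 164 to 252 in pregnant and 60.9 to 176 in non-pregnant cows. The red-cell markers miR-451 and miR-486 differed by 0.36 (standard error 0.39) and 0.24 (standard error 0.53). miR-451 ran from 0.15 without pregnant 2 to 0.59 without non-pregnant 1. Of 10 leukocyte miRNAs 4 were detected and 3 tested, with 0 past the threshold and sums of 171 to 456 and 64.3 to 184. In plasma, a change in the number of cells of a type and in the RNA released per cell cannot be told apart. The part of these cells in the signals of miR-423-5p, miR-361 and miR-197 was not tested.

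Against what a reference requires, the measurements were as follows. miR-423-5p met detection on all 7 arrays with every unflagged longer-probe spot well above background. However, its unscaled level separated the groups by a narrow margin, as 1 of 8 separated miRNAs among the 88 tested (9.09%). Its scaled level did not separate them. Without scaling its spread was the 4th smallest of the 40 miRNAs detected on every array. It was above their median after division by the 75th percentile and below it with quantile scaling. miR-197 was detected on all 7 arrays, but only its longer probe was well above background on 6 of them, and its difference changed sign with 1 cow. miR-361 was not detected in 1 of 7 cows and had over 50% of spots well above background in 4 of 7.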

How the data were processed

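Plasma miRNA of 7 cows was measured on 1-colour arrays. The spot intensity deposited by the authors is background-subtracted within each array (Agilent Feature Extraction 11.0.1.1, per the file headers) and carries no scaling across arrays; their intensity for a miRNA adds up its accepted probes. In the authors' deposited log2 table, 730 of 766 names matched. Its values equal log2 of that intensity plus 3.32 (largest deviation 7.35e-06), are uncentred and unscaled, and are blank where a miRNA was undetected; the meaning of the constant stays unknown. Its column medians were 7.29, 7.64, 7.40 and 7.25 in pregnant 1 to 4 and 7.90, 7.75 and 7.46 in non-pregnant 1, 3 and 4.

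Control and outlier spots were dropped, and the mean of each probe's other spots was divided by the 75th percentile of 57 probes with over 50% of spots well above background on every array. Values under 0.0122, the median over arrays of the lowest such scaled value, were raised to it before taking log2, and probes of a miRNA were averaged. Without scaling the same rule gave a floor at a signal of 8.52. Groups were compared with limma 3.58.1 in R 4.3.3 (moderated two-sided test, Benjamini-Hochberg adjustment across the 88 miRNAs detected on 3 or more arrays), which was tested on simulated data. Normexp used an offset of 50, above every signal of the 3 candidates.

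Named miRNAs were the 3 candidates, the 3 with the smallest SD of the log2 ratio to each candidate detected on all arrays, the 5 with the smallest scaled SD, tested members of the reference and platelet lists, miR-451 and miR-486. Undetected miRNAs were named after their values were seen. Members and lists were chosen with earlier results of these data known.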

Additional observations from a re-analysis of the deposited data

Results flagged for a closer look

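Among the 4 pregnant arrays, 32 quantities were examined for a lone extreme array and 4 had one. For a single quantity chance gives about 1 in 20. Each candidate entered with several quantities from the same spots, so the 4 cannot be set against that rate. miR-197 in pregnant 3 accounted for 3 of the 4, all drawn from the same spots. Its software signal was 27.9, while pregnant 1, 2 and 4 had 7.12 to 8.49 (0.934 as the ratio of gap to range), its longer-probe signal 28.4, against 10.7 to 12.8 (0.884), and its unscaled log2 level 4.29, against 3.26 to 3.38 (0.878). The scaled level of miR-3141 in pregnant 3 was -2.32, against -1.50 to -1.38 in the others (0.871). Pregnant 3 was the brightest array, with a 75th percentile of 1645, and the part of brightness in these values was not tested.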

How the results depend on the processing

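No alternative gave a call: in the 26 settings besides the main one, 0 miRNAs passed (0 to 10 at an unadjusted limma p under 0.05; smallest adjusted p of limma 0.0854). The exact permutation test, whose smallest possible p is 0.0286 over 35 splits, could hardly pass an adjustment over 88 miRNAs and says nothing here. Over their alternatives, adjusted p ran from 0.345 to 1.00 for miR-423-5p, 0.345 to 0.998 for miR-361 and 0.472 to 1.00 for miR-197. Exact permutation p-values were 0.343, 0.429 and 0.943 unadjusted. The brightest-probe settings, the unscaled setting without non-pregnant 1, and the levels of single miRNAs under the candidates as divisor were chosen after seeing the data. Scaling on the 75th percentile of all probes was not run, because that percentile was negative on an array (lowest -0.291).

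With normexp, differences turned to -0.11 (miR-423-5p), -0.20 (miR-361), -0.17 (miR-16b), -0.21 (let-7i), -0.18 (miR-320a), -0.16 (miR-451) and -0.079 (miR-486). miR-197 turned positive without scaling (0.37), with the median of the miRNAs detected on all arrays (0.12), in the authors' deposited table (0.71), and on the brightest probe with (0.12) and without scaling (0.57). With that median, let-7i turned to -0.17 and miR-320a to -0.11. With quantile scaling, miR-320a was at -0.019 and miR-486 at -0.065, and in the authors' deposited table miR-320a was at -0.32. Divided by miR-423-5p, miR-197 and both, miR-320a was at -0.031, -0.18 and -0.12 and miR-486 at -0.099, -0.022 and -0.061. The cause was not tested.

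The SD of miR-423-5p was 0.35 without scaling, 0.17 with quantile scaling, 0.36 with the floor doubled and 0.38 divided by miR-197. That of miR-361 was 0.21, 0.18 and 0.088 in the first 3 of these, 0.78 with the median of detected miRNAs, 0.51 with normexp, 0.63 in the authors' deposited table, 0.66 on the brightest probe, and 0.13, 0.17 and 0.13 divided by miR-423-5p, miR-197 and both. Levels raised to the floor enter at least the 0.21, the 0.088, the 0.78, the 0.66 and the last 3 values. On the longer probes with no floor, the log2 ratio of miR-361 to miR-423-5p had an SD of 0.49 and that to miR-197 one of 0.46, over 6 arrays. Without scaling and without non-pregnant 1 the SDs of miR-423-5p and miR-361 were 0.20 and 0.22, and the difference of miR-197 was 0.38. The SD of miR-197 was 0.40 without scaling, 0.31 with the floor doubled and 0.35 divided by miR-423-5p. With an array left out, SDs ran from 0.46 to 0.60, 0.24 to 0.34 and 0.27 to 0.73 for miR-423-5p, miR-361 and miR-197, and differences from 0.18 to 0.68, 0.23 to 0.35 and -0.47 to 0.49. Those of miR-486 ran from -0.12 to 0.60. Counts of calls stayed at 0 in all 7 such fits.

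Cow numbers 1, 3 and 4 occur in both groups and were taken to name separate animals. Same-numbered arrays correlated at 0.094, 0.65 and -0.20 in their scaled deviations and at -0.040, 0.81 and -0.60 in their unscaled ones. So few correlations cannot decide whether the numbers pair the cows. The number is also the column on the slide. With cow number as a replicate block, 0 miRNAs were called and the differences were 0.39, 0.24 and -0.23. Signals near background limit miR-361 and miR-197 most.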
